A study of Mus musculus with 8 samples.

Results

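The m6A peaks of 5 transcripts that mark mouse embryonic stem cells (ESCs), Nanog, Sox2, Pou5f1, Sall4 and Lin28a, were followed in E14 ESCs given DMSO or doxycycline (Dox) for 24 h. A peak was given to a gene when its exon blocks and the gene's exons in GENCODE vM21 (GRCm38/mm10) had 1 or more bases in common on the same strand. By this rule 16 of the 18895 peaks of DMSO cells and 16 of the 13001 peaks of Dox cells belonged to these 5 genes, out of 6407 genes with a peak in either list. The peaks came from methylated RNA immunoprecipitation sequencing (MeRIP-seq), in which fragments of poly(A) RNA that carry m6A are pulled down with an antibody (IP) and sequenced next to RNA that was not pulled down (input). There were 8 libraries, an IP and an input library from each of 2 replicates per treatment. All of the cells carried a Dox-inducible transgene of Dux, the factor that starts the 2C-like state, in which ESCs take on features of the 2-cell embryo, and a tdTomato reporter under the Mervl promoter, and all were grown with leukemia inhibitory factor. DMSO is the solvent control. How many cells in each culture had entered the 2C-like state is not analysed here.

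OCT4 (encoded by Pou5f1), SOX2 and NANOG are transcription factors that bind together at many enhancers of ESCs and hold them in the pluripotent state. SALL4 is a zinc finger factor that acts with them, and LIN28A is an RNA-binding protein known for blocking the maturation of let-7 microRNAs. m6A is laid down on mRNA by the METTL3 and METTL14 methyltransferase, most often within the sequence GGAC and related sequences, in long exons and near the stop codon, and in ESCs it is known to shorten the life of pluripotency transcripts.

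There was 1 peak list per treatment, with the replicates already merged, so that no value below has a replicate error and no test between DMSO and Dox was possible. Each peak carried a score, read from its values as a −log10 p-value of IP over input. To set lists of different size side by side, each score was also given as a percentile, the share of the peaks in the same list that scored lower (ties counted by their middle rank). A peak rests on the amount of transcript as well as on its methylation, and these cannot be told apart here. Read depth was not analysed.

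The sequences under the peaks that the results turn on are shown first, each as a 25-nt window of the transcript read 5′ to 3′ from the GRCm38 genome. GGAC, the core of the commonest m6A site, is in capitals where a window is shown for it. In the Nanog 5′UTR peak and the end of the Pou5f1 peak the capitals mark a match to the broader consensus DRACH (D is any base but C, R a purine, H any base but G). The number after a gene's name is the position of the first base of GGAC in the transcript.
Nanog 5′UTR peak: gctgcggctcacttccttcTGACTt
Nanog 823: agccagacttGGACcaacccaactt
Nanog 853: agccagacctGGACcaacccaactt
Nanog 883: aaccagacctGGACcaacccaactt
Nanog 913: agccaggcctGGACcgctcagtcct
Nanog 974: acttcggggaGGACtttctgcagcc
Sox2 977: tgtgagggctGGACtgcgaactgga
Pou5f1 966: gaggctacagGGACacctttcccag
Pou5f1 end: ctgggctctcccatgcattcAAACT
Nanog 2172: gatgccagctGGACtagtttaaaca
Sall4 3713: tgttaatttgGGACaaattatattc
Lin28a 1754: gcaaaacataGGACatcactctaaa

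The first window, chr6:122707637-122707661 on the plus strand, is the whole of the 1 peak that had no counterpart in the other list. The next 5 windows, from chr6:122713235-122713259 to chr6:122713386-122713410, are all the GGAC sites of the Nanog peak over the stop codon. Those at 823, 853, 883 and 913 lay 30 nt apart from each other, and the first 3 of them read alike from GGAC to the window's end. The Sox2 window, chr3:34651371-34651395, holds the stop codon with GGAC starting 8 nt after its first base. The Pou5f1 end, chr17:35510525-35510549, is the stretch that the DMSO peak covered and the Dox peak did not, and its last base is the first base of the stop codon. The last 3 windows are the GGAC sites that lay under a peak in the DMSO list alone. They lie at chr6:122714584-122714608, at chr2:168749678-168749702 on the minus strand and at chr4:134005067-134005091 on the minus strand. For scale, 8.96% of all 25-nt windows laid end to end along the transcripts of coding genes with a peak in both lists held a GGAC, and 36.2% held a DRACH. All windows above but the Nanog 5′UTR peak and the Pou5f1 end were placed around a GGAC, so these shares do not show them to be enriched.

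**Figure D1:**
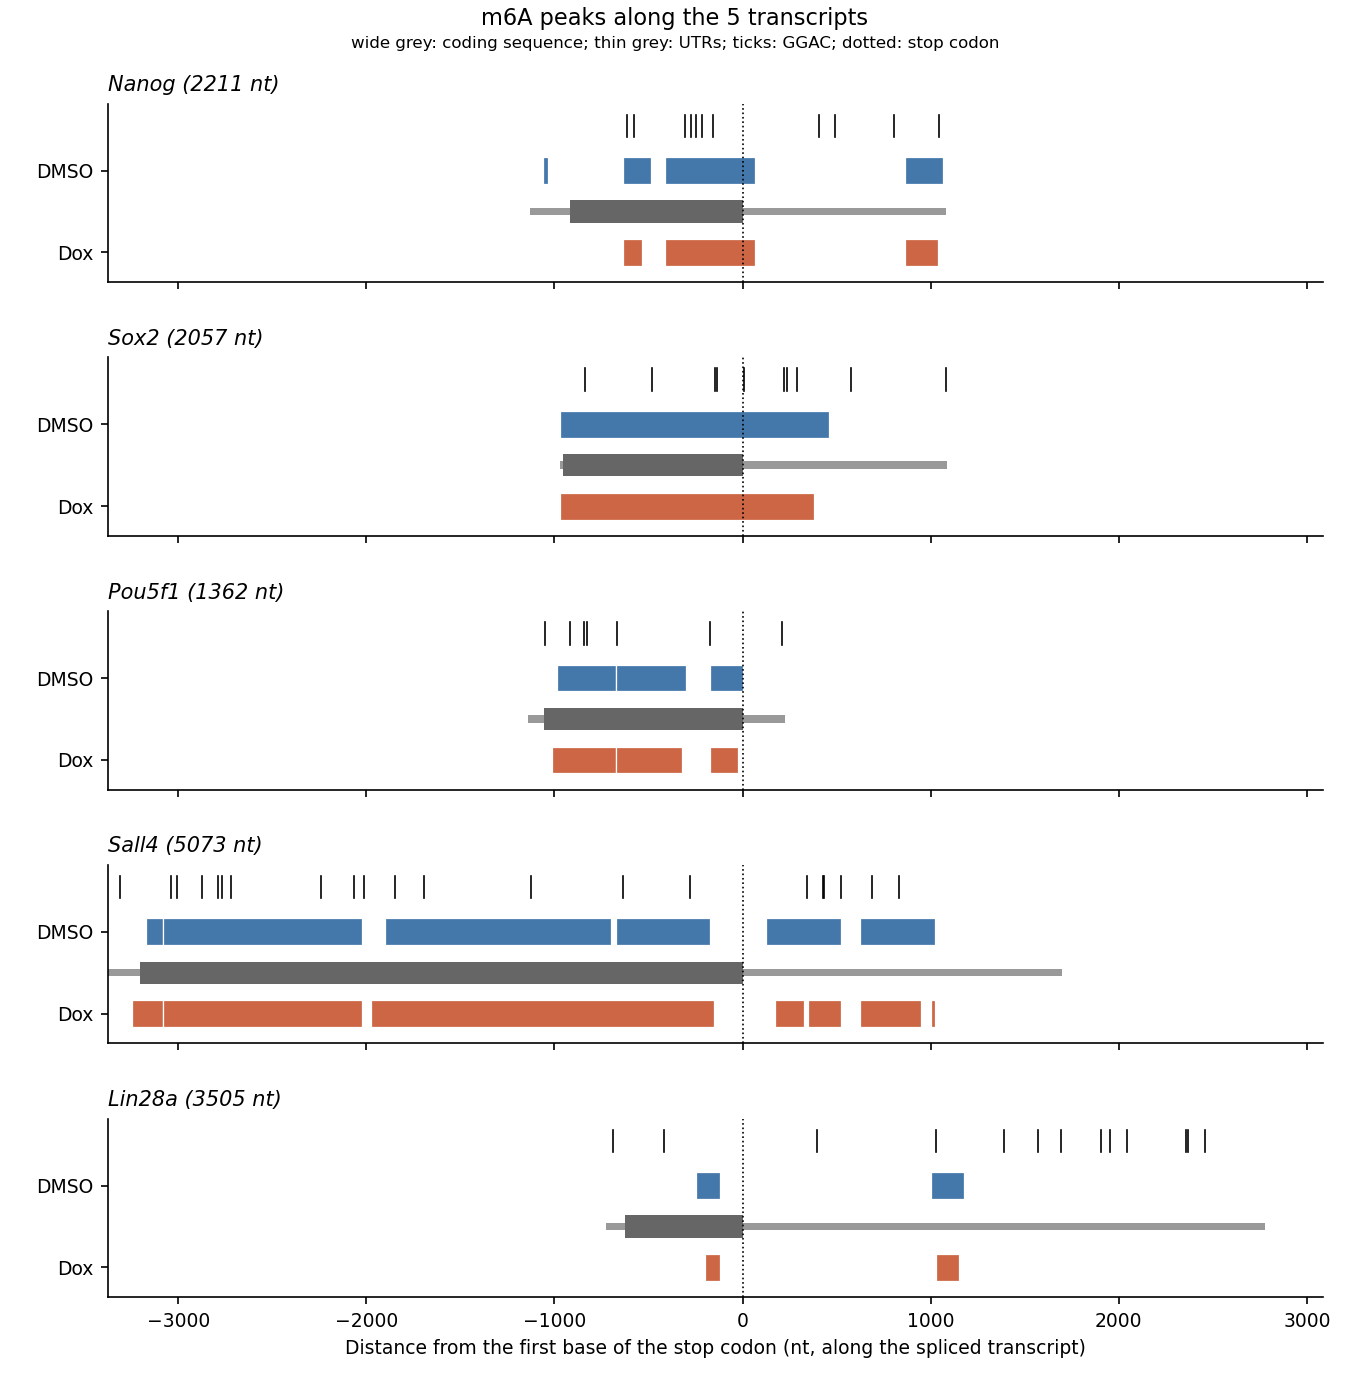
m6A peaks along the spliced transcripts of the 5 genes, with DMSO peaks above and Dox peaks below each transcript; the horizontal axis is the distance in nt from the first base of the stop codon, wide grey bars are coding sequence, thin grey bars are UTRs and ticks are GGAC sites. Blocks of the same position recur in both lists, all genes but Lin28a are covered over most of their coding sequence, and Lin28a has 2 short peaks in each list.

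Each of the 5 genes had a peak in both lists. Of all 21951 protein-coding genes, 27.6% had a DMSO peak, 22.2% a Dox peak and 21.5% both. An overlapping peak in the other list was found for 15 of the 16 DMSO peaks (Wilson 95% interval of the share 71.7% to 98.9%) and for 16 of the 16 Dox peaks (80.6% to 100%), where the whole lists gave 57% and 92.7%. These counts rested on low-scoring peaks: with a score of at least 12 in both lists, an overlap was left for 7 of 13 DMSO peaks and 8 of 9 Dox peaks, where all peaks so chosen gave 3047 of 7617 and 3136 of 4690, and Lin28a had no Dox peak left. These intervals cover counting error only, and peaks of one transcript are not independent of each other. Peaks of these genes ran from 25 to 1425 nt in the DMSO list and from 25 to 1825 nt in the Dox list. Their median length was 350 nt in DMSO and 175 nt in Dox, against 125 nt for all peaks of either list. Their median score percentile was 78.1 in DMSO and 76.1 in Dox, with 13 and 10 of the 16 above the list median. The whole lists were not matched to them in length or score, so the overlap counts cannot be read as a trait of these genes. In each list 3 of the 16 were 1000 nt or longer, whereas 1.29% of all DMSO peaks and 1.32% of all Dox peaks reached that length. In each list 1 of the 16 had the shortest length of 25 nt, which 16.6% of all DMSO peaks and 16.5% of all Dox peaks had.

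Nanog (ENSMUSG00000012396.12, chr6:122707489-122714633, plus strand) has a transcript of 2211 nt in 4 exons. It had 4 peaks in DMSO cells and 3 in Dox cells. The longest, chr6:122713142-122713616, was base for base the same in both lists, with 475 nt of which 414 were coding and 61 were 3′UTR. Its score was 13.98 in DMSO (percentile 84.5) and 13.1 in Dox (percentile 80.5). This peak starts at the first base of the last exon and holds the stop codon and the 5 GGAC sites shown above. The 3′UTR peak began at 122714417 in both lists, was 200 nt long with a score of 15.0 in DMSO (percentile 89.3), and was 175 nt long with a score of 17.8 in Dox (percentile 96.1). The 25 nt by which it was shorter in Dox held the GGAC at 2172. The Dox form of this peak has a copy on chromosome X (chrX:89882352-89882526, 98.3% identity over its whole length). The DMSO form matches the same locus over its whole length with 97% identity. The peak over the stop codon matches the Nanog-ps1 pseudogene on that chromosome with 95.8% identity, so that reads of Nanog may be shared with these loci. No peak of either list lay at the chrX:89882352-89882526 copy. The peak of exon 2 was 150 nt in DMSO, where it ran on into exon 3, and 100 nt in Dox, where it stopped within exon 2. Its scores were near the floor of the lists, 11.1 and 10.7 (percentiles 32.4 and 18.2). The fourth DMSO peak, the 25 nt of the 5′UTR shown above, scored 10.1, which put it at percentile 1.75 of its list, and no Dox peak lay there.

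Sox2 (ENSMUSG00000074637.7, chr3:34650405-34652461, plus strand) is a gene of 1 exon with a transcript of 2057 nt. A single peak started at its first base in both lists and covered the whole 5′UTR, the whole coding sequence, the stop codon and part of the 3′UTR. It was 1425 nt long in DMSO and 1350 nt in Dox, so that the 3′UTR under it was 454 and 379 nt. The score was 12.8 in DMSO (percentile 73.2) and 18.6 in Dox (percentile 96.5). The peak held 8 of the 10 GGAC sites of the transcript in each list. Complete cover of the coding sequence was uncommon, and put Sox2 at percentile 99.6 of coding genes with a peak in both lists, in DMSO as in Dox. The exon lies inside the span of the long noncoding Sox2ot gene on the same strand, but they share no exonic base.

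Pou5f1 (ENSMUSG00000024406.16, chr17:35506018-35510772, plus strand) has a transcript of 1362 nt in 5 exons and 3 peaks in each list. The first peak was 325 nt with a score of 16.6 in DMSO (percentile 93.1) and 350 nt with a score of 11.1 in Dox (percentile 34.7). Exon 1 held 316 and 341 nt of it, and the other 9 nt lay in an exon of another Pou5f1 transcript. In exons 2, 3 and 4 (but for 2 nt in an exon of another transcript) the peak was 375 nt with a score of 13.1 in DMSO (percentile 77.0) and 350 nt with a score of 15.0 in Dox (percentile 91.5). In exon 5, at the 3′ end of the coding sequence, it was 175 nt with a score of 11.6 in DMSO (percentile 47.2) and 150 nt with a score of 27.3 in Dox (percentile 98.9, rank 145 of 13001). Along the transcript, then, the order of the scores ran from high to low in DMSO cells and from low to high in Dox cells. The exon 5 peak reached the stop codon with a single base in DMSO and ended 24 nt before it in Dox. Nothing of the 221-nt 3′UTR was under a peak in either list, which was so for 29.3% of coding genes with a peak in both lists in DMSO and 37.7% in Dox. The antisense gene Gm19553 overlaps the second and the third peak on the opposite strand, and no peak was called on its own strand. The exon 5 peak also has a copy on chromosome 1 (chr1:159293805-159293966, 100% identity over 92.6% of the DMSO peak), where reads of a Pou5f1 fragment could align as well, and no peak of either list lay there.

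Sall4 (ENSMUSG00000027547.17, chr2:168748332-168767943, minus strand) has the longest of these transcripts, 5073 nt in 4 exons, and had 6 DMSO peaks and 7 Dox peaks. In the long exon 2, 94.7% of the 2367 nt lay under DMSO peaks and 97.9% under Dox peaks. A peak of 1075 nt was identical in both lists, with a score of 18.8 in DMSO (percentile 95.8) and 13.1 in Dox (percentile 80.9). Of its bases, 17 lay in an exon of another Sall4 transcript. Further 3′ a DMSO peak of 1200 nt (score 15.5, percentile 90.8) was followed by one of 500 nt (score 13.0, percentile 76.8). In Dox cells 1 peak of 1825 nt spanned both, with a score of 11.6 (percentile 53.9). In the 3′UTR it was the other way round. The 400-nt DMSO peak with a score of 12.1 met Dox peaks of 150 and 175 nt, with scores of 11.3 and 15.4, and the 400-nt DMSO peak with a score of 13.5 met Dox peaks of 325 and 25 nt, with scores of 12.4 and 15.2. The GGAC at 3713 lay in the first of the gaps so formed. Across all shared peaks, 12.1% of DMSO peaks met more than 1 Dox peak and 2.42% of Dox peaks met more than 1 DMSO peak. At the stop codon itself Sall4 had no peak, the nearest ones lying 175 nt before and 125 nt after it in DMSO, and 150 nt before and 175 nt after it in Dox. The peak of exon 1 was 100 nt with a score of 13.3 in DMSO (percentile 79.2) and 175 nt with a score of 10.9 in Dox (percentile 25.2). In each list 10 nt of it lay in an exon of another Sall4 transcript. The exon 1 peak extended into the 5′UTR in Dox alone, and the gene Gm14261 overlaps it on the opposite strand.

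Lin28a (ENSMUSG00000050966.9, chr4:134003330-134018841, minus strand) differed from the others in having short peaks on a long transcript of 3505 nt. In the coding sequence the peak was 125 nt over exons 3 and 4 in DMSO, with a score of 18.8 (percentile 95.8), and 75 nt within exon 4 in Dox, with a score of 10.8 (percentile 23.4). In the 3′UTR of 2775 nt the peak was 175 nt with a score of 12.2 in DMSO (percentile 64.7), and 125 nt with a score of 10.8 in Dox (percentile 24.3). The nearer peak ended 122 nt before the stop codon in both lists. Exons 1 and 2 had no base under a peak.

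A peak covered at least 1 base of the stop codon in 3 of the 5 genes in DMSO, namely Nanog, Sox2 and Pou5f1, and in 2 of 5 in Dox, namely Nanog and Sox2. Of the 4730 coding genes with a peak in both lists, 4695 had a transcript with a complete coding sequence and a stop codon. Cover and motif values for such genes rest on these 4695. Over them the stop codon was under a peak for 49.2% in DMSO, 39.3% in Dox, 37.8% in both lists and 11.4% in DMSO alone. Since Pou5f1 counted by 1 base, the number was 2 in each list when all 3 bases had to be covered, a setting chosen after seeing the data. Within 200 nt of the stop codon all 5 genes had a peak in each list, where 77.2% and 68.2% of those genes did.

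The share of each transcript under peaks set Nanog, Sox2, Pou5f1 and Sall4 apart from Lin28a. Of the Nanog transcript 38.4% lay under DMSO peaks and 33.9% under Dox peaks. Sox2 had 69.3% and 65.6%, Pou5f1 63.4% and 61.6%, and Sall4 71.9% and 73.4%. Lin28a had 8.56% and 5.71%. The median coding gene with a peak in both lists had 15.4% in DMSO and 9.74% in Dox. Among those genes Sall4 stood at percentiles 98.9 and 99.1, Sox2 at 98.5 in both lists, Pou5f1 at 97.7 and 98.2, Nanog at 87.4 and 89.6, and Lin28a at 26.9 and 33.0. Of the partners and targets listed below, Klf4 had 78.4% and 76.8% of its transcript under peaks and Klf2 70.4% in both lists, while Tfcp2l1 had 13.5% and 8.63%.

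**Figure D2:**
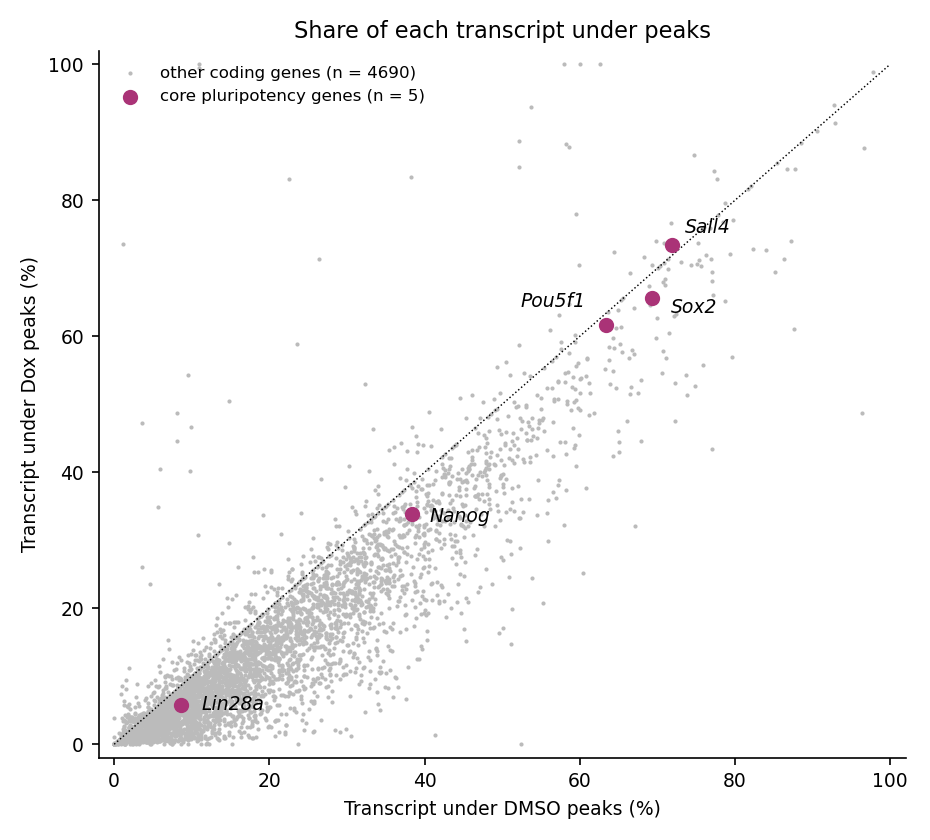
Share of the transcript under DMSO peaks (horizontal axis, %) and under Dox peaks (vertical axis, %) for the 4695 coding genes with a peak in both lists, each point 1 gene and the dotted line marking equal shares. Sall4 lies just above the line at 71.9% and 73.4%, the other four genes of the group lie below it, and most of the grey points lie below it too.

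By region, the coding sequence held more of the covered bases than the UTRs in each gene but Lin28a, which had 125 coding and 175 3′UTR nt under DMSO peaks, and 75 and 125 nt under Dox peaks. DMSO peaks covered 61.4% of the coding sequence of Nanog, 100% of that of Sox2, 81.6% of that of Pou5f1, 88.9% of that of Sall4 and 19.8% of that of Lin28a. Dox peaks covered 56.0%, 100%, 79.2%, 93.7% and 11.9% in the same order, where the median gene had 20.2% in DMSO and 11.5% in Dox. Lin28a was thus close to the median gene in both lists. In the 3′UTR Sall4 had the highest cover of the group, 47.1% in DMSO and 39.8% in Dox, followed by Sox2 with 41.8% and 34.9% and Nanog with 24.2% and 21.9%, against medians of 7.72% and 3.86%. Lin28a had 6.31% and 4.50%. The 5′UTR was under a peak in Sox2, where it is 11 nt long, in Nanog in DMSO alone and in Sall4 in Dox alone. By exon length, all 7 exons of 400 nt or more in these genes met a peak in both lists, as did 78.6% of such exons of all the genes in DMSO and 73.0% in Dox. Within them 51.3% of bases lay under DMSO peaks and 49.7% under Dox peaks, against 21.9% and 16.5% over all the genes. Among shorter exons, the 4 under 150 nt had 56.2% of bases under DMSO peaks and 53.6% under Dox peaks, against 11.2% and 6.04%. That cover lay almost wholly in Pou5f1, whose exons 2 and 3 were fully covered in both lists. Nanog exon 3 had 12 of its 87 nt under a DMSO peak and none under a Dox peak, and Lin28a exon 1 had none in either. The 7 exons of lengths in between had 38.2% and 37.0%, against 13.1% and 7.93%. They ranged from none in Lin28a exon 2 to 91.3% and 100% in Sall4 exon 3.

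**Figure D3:**
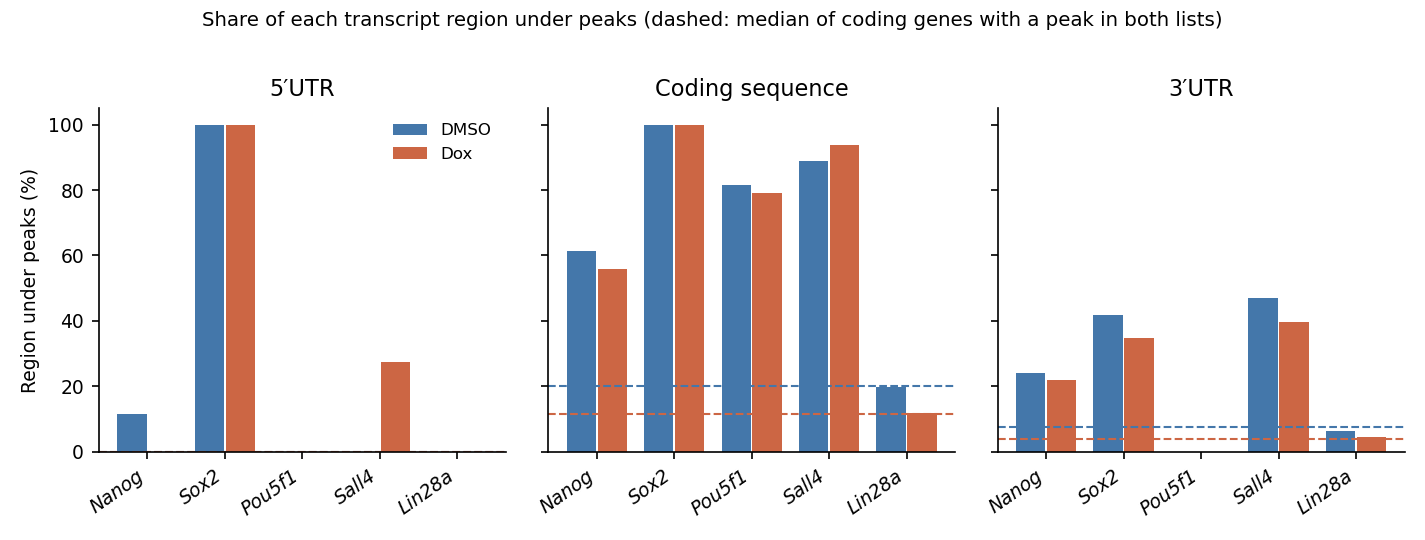
Percentage of the 5′UTR, the coding sequence and the 3′UTR of each gene under DMSO peaks (blue) and Dox peaks (orange), with dashed lines at the medians of coding genes with a peak in both lists. Sox2 reaches 100% of its coding sequence in both lists, Pou5f1 has no 3′UTR base under a peak, and Lin28a lies near the medians.

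Of the bases under a peak in either list, 90.8% were under a peak in both for the 5 genes pooled, against 64.2% for all coding genes with a peak in both lists pooled. The DMSO peaks covered 7125 nt, the Dox peaks 6900 nt and both together 6675 nt, so that 93.7% of DMSO bases and 96.7% of Dox bases were common. The value for single genes was 94.7% for Sox2, 91.7% for Pou5f1, 91.6% for Sall4, 88.2% for Nanog and 66.7% for Lin28a, and the median gene had 63.2%. Cover in Dox relative to DMSO was 0.968 for the group, between 0.667 for Lin28a and 1.02 for Sall4, against 0.703 for the median gene. With a score of at least 12 this nearness was lost: the group had 6775 nt in DMSO and 4100 nt in Dox, a ratio of 0.605 against 0.627 for all those genes pooled, and the share of bases under peaks in both was 57.04% against 37.4%. The 1825-nt Dox peak of Sall4, with its score of 11.6, was among those left out. In the lists as deposited, only Pou5f1 and Sall4 had bases under Dox peaks alone, 25 and 200 nt. Sall4 gave more bases than the other four genes together, and without it, an alternative added after seeing the data, the peaks covered 3450 nt in DMSO and 3150 nt in Dox. Near-equal cover was not particular to the 5 genes. Of the partners and targets below, Klf2 had 1300 nt in both lists, Klf4 2375 and 2325 nt, Esrrb 2225 and 2175 nt, and Tbx3 2800 and 2825 nt. Others differed more, such as Rif1 with 3050 and 1975 nt and Tfcp2l1 with 1250 and 800 nt. Klf2, Klf4, Esrrb and Tfcp2l1 were named after their values were seen.

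In 11 cases 1 DMSO peak met 1 Dox peak and neither met another. In 7 of them the DMSO peak was longer, in 2 the Dox peak was, and 2 were of equal length and identical. Over all 8891 such pairs, 68.9% had a longer DMSO peak, 10.9% a longer Dox peak, 20.2% equal lengths and 17.5% identical blocks. The 5′ edge was the same in 7 of the 11 and the 3′ edge in 5 of the 11, against 36.7% and 42.5% of all pairs. The Dox percentile was the higher one in 4 of the 11, against 37.9% of all pairs. These 4 were the Sox2 peak, the 3′UTR peak of Nanog and the last 2 peaks of Pou5f1. Dox minus DMSO, the difference ran up to 51.7 percentile points for the Pou5f1 exon 5 peak, a value that 2.49% of all pairs reached or passed. It ran down to -72.4 points for the Lin28a coding peak, and 1.74% of all pairs were as low or lower. Both are the extremes of 11 pairs, picked after their values were seen, so these shares of single pairs do not show them to be unusual. The Pou5f1 exon 1 peak had -58.3 points, the Sall4 exon 1 peak -54.0 points and the Lin28a 3′UTR peak -40.4 points. The median was -14.3 points over the 11 pairs and -6.94 points over all pairs. Whether such differences exceed the spread between replicates could not be tested.

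**Figure D4:**
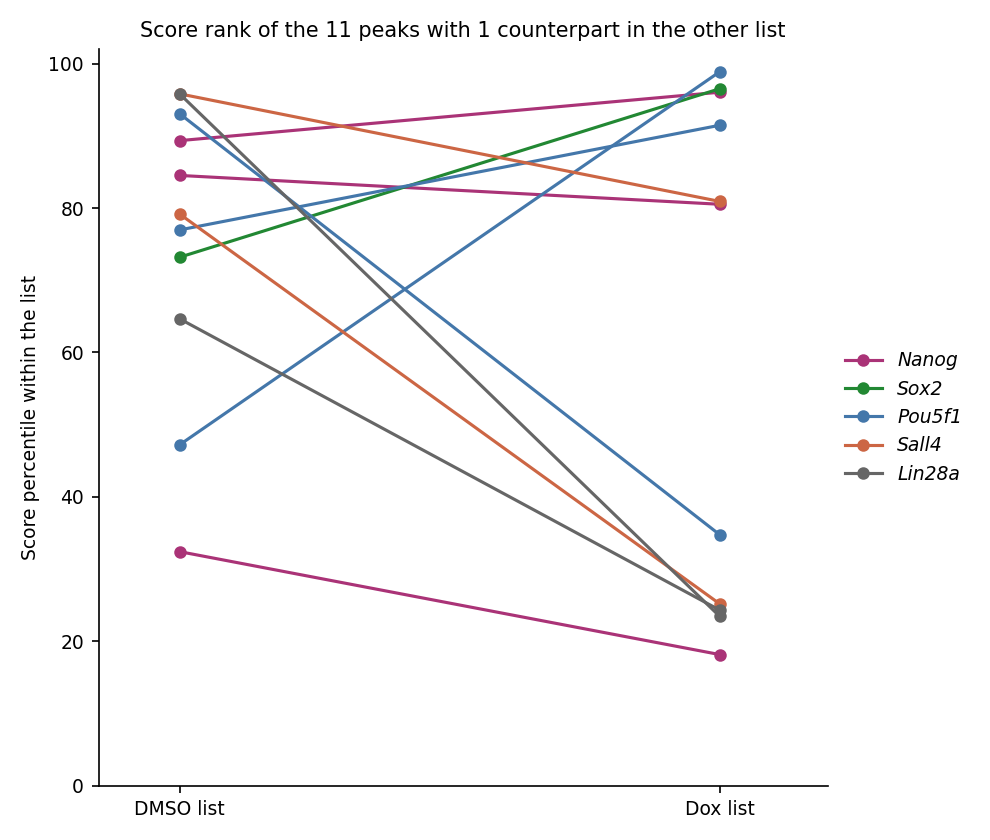
Score percentile within the DMSO list and within the Dox list for the 11 peaks of the 5 genes that met exactly 1 peak of the other list, each line 1 peak and each colour 1 gene. The Pou5f1 lines cross, with the exon 5 peak at 47.2 and 98.9 and the exon 1 peak at 93.1 and 34.7, and both Lin28a lines run downward.

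The 5 transcripts hold 62 GGAC sites, of which 41 lay under DMSO peaks and 38 under Dox peaks. All 38 were among the 41, and 21 lay under no peak. The 3 sites under a DMSO peak alone were in the 3′UTRs of Nanog, Sall4 and Lin28a, as shown above. Pooled over the genes there were 0.579 GGAC per 100 nt under DMSO peaks and 0.295 outside them, and 0.554 under Dox peaks and 0.327 outside. All coding genes with a peak in both lists had 0.614 and 0.382 in DMSO, and 0.660 and 0.390 in Dox. Nanog had the highest density under DMSO peaks, 0.941 against 0.220 outside. In Lin28a it was 0.333 under DMSO peaks and 0.374 outside them, and none of its 13 sites lay under a Dox peak. The reverse complement GTCC, searched as a control on the same strand, was also denser under the peaks of the group, 0.508 against 0.309 in DMSO and 0.539 against 0.286 in Dox. In all the genes it was 0.343 against 0.354 in DMSO and 0.346 against 0.353 in Dox. The excess of GTCC lay mainly in Sall4, with 24 sites under DMSO peaks and 2 outside. Within regions of the pooled genes it was smaller in DMSO, 0.578 against 0.567 in the coding sequence and 0.296 against 0.252 in the 3′UTR, and in Dox it was 0.594 against 0.507 and 0.353 against 0.239. GGAC had 0.541 against 0.213 in the coding sequence and 0.710 against 0.310 in the 3′UTR in DMSO, and 0.538 against 0.217 and 0.636 against 0.349 in Dox, with 3 coding sites outside peaks in each list. The single genes differed. In the coding sequence GGAC was denser under Dox peaks in Nanog and Pou5f1, but not in Sall4 (0.433 against 0.493) or Lin28a (0 against 0.180). In the 3′UTR it was denser under Dox peaks in Sox2 and Sall4, but not in Nanog (0 against 0.475) or Lin28a (0 against 0.415). A match to these letters is a description of the sequence, not a measured methylation site.

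**Figure D5:**
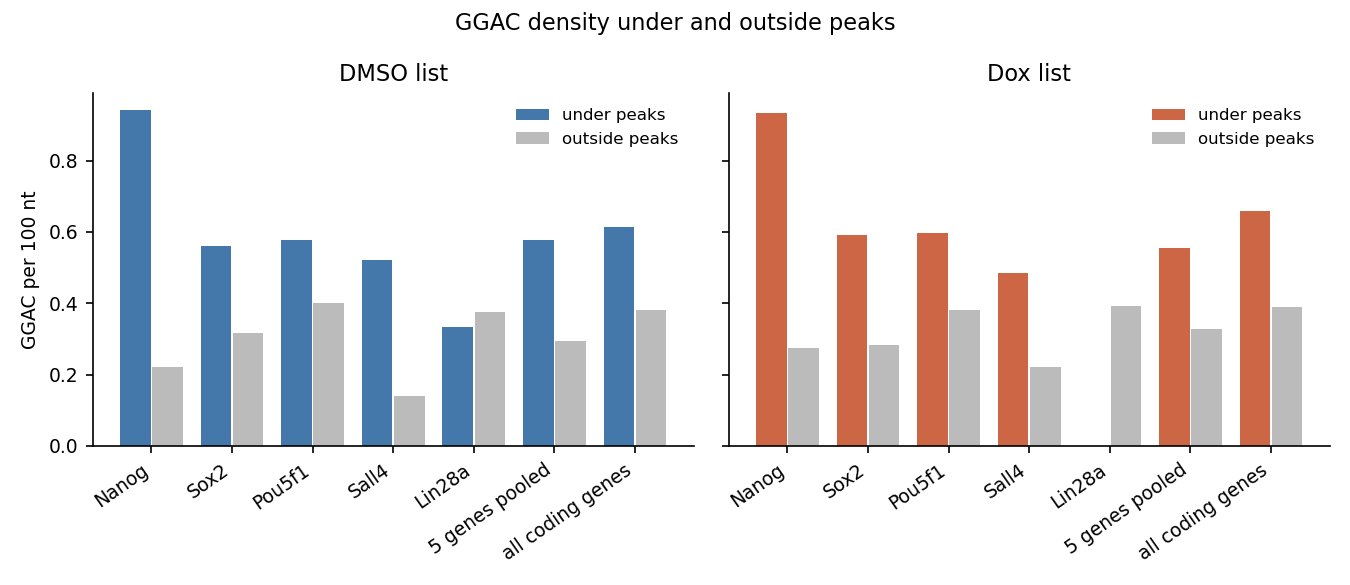
GGAC sites per 100 nt of transcript under peaks (coloured bars) and outside peaks (grey bars) in the DMSO list (left) and the Dox list (right), for each gene, for the 5 genes pooled and for all coding genes with a peak in both lists. Nanog has the tallest bar under DMSO peaks at 0.941, and Lin28a has no GGAC under a Dox peak.

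Relatives of these genes were compared as a list of 10 family members. A peak was found for 4 of the 10 in DMSO and for 5 of the 10 in Dox, where 27.6% and 22.2% of all coding genes had one. These family members had 26 and 21 peaks in all. Sall1, a paralog of Sall4, was the most covered of them, with 60.8% of its transcript under 10 DMSO peaks and 54.1% under 8 Dox peaks. Sall3 had 8 and 4 peaks over 20.1% and 10.9%, and Pou2f1, the ubiquitous relative of Pou5f1, had 7 and 2 peaks over 5.50% and 1.34%. Sox3, which like Sox2 belongs to the SoxB1 group, had no DMSO peak and 6 Dox peaks over 33.9% of its transcript. Sox1 had 1 short peak in each list. Lin28b, the paralog of Lin28a, had none, and neither had Sall2, Sox15, Sox21 or Pou3f1. Sox1 and the genes without a peak are named to complete the counts and were picked after their values were seen. A gene without a peak may be unmethylated or little expressed, and the lists do not tell these apart.

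Of 20 partners and targets of the pluripotency network, 18 had a peak in both lists, as did 21.5% of all coding genes. They had 71 DMSO and 68 Dox peaks. Those with most bases under peaks, summed over both lists, were Trim71, which encodes an RNA-binding protein repressed by let-7, with 3700 nt in DMSO and 3500 nt in Dox, and Tbx3, a T-box factor of the naive state, with 2800 and 2825 nt. L1td1, which encodes an RNA-binding protein of LINE-1 origin, had 2775 and 2550 nt, and Rif1, a factor of replication timing, had 3050 and 1975 nt. As a share of the transcript these were 39.6% and 37.5% for Trim71, 57.6% and 58.2% for Tbx3, 96.6% and 87.8% for L1td1, and 35.8% and 23.2% for Rif1. Lefty1 and Dppa3, named after their values were seen, had no peak. All 10 ESC markers, which include the 5 genes themselves, had a peak in both lists, 29 in DMSO and 32 in Dox, and none of 6 primitive endoderm markers and none of 6 markers of differentiating epiblast and germ layers had one in either. Among all coding genes, peaks were found for 27.6% in DMSO and for 22.2% in Dox. Since most coding genes lacked a peak, sets of 6 markers without any are too small to be told from that background. Having a peak is no measure of how much of a marker was expressed. Of 5 trophectoderm markers, Eomes alone had peaks, 2 of them in DMSO. Of 7 2C-like markers, 3 had a peak in DMSO and 7 in Dox, with 9 and 20 peaks. The best-scoring Zscan4f peak scored 13.0 in DMSO and 113 in Dox, but Zscan4 genes are near-identical copies whose reads may be split between them. The part that the 2C-like transcripts of the Dox cells had in the values of the 5 genes was not tested.

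The gene most like each in its cover was the one with the smallest Euclidean distance over 6 values, the shares of 5′UTR, coding sequence and 3′UTR under peaks of each treatment, among 4579 coding genes with all 3 regions. For Lin28a it was Gnl3l, at a distance of 0.00542, and for Pou5f1 it was Rbm15, at 0.0240. Rbm15, itself a subunit of the m6A writer complex, had 83.9% of its coding sequence under DMSO peaks, 78.7% under Dox peaks and no base of its UTRs under any. Nanog was nearest to Trap1a at 0.121, Sox2 to Akap12 at 0.194 and Sall4 to Ubb at 0.200. How far genes in general lie from their nearest gene was not computed, so none of these matches can be called close or distant. The distance weighs each region equally whatever its length. The 11-nt 5′UTR of Sox2, fully covered in both lists, and the 47 nt of the Sall4 5′UTR under a Dox peak thus count as much as longer regions.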

How the data were processed

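Peaks were taken from the 2 lists the authors deposited, 1 per treatment. According to the study's methods and the submitters' processing notes, reads of stranded libraries passed through fastp 0.19.4 and HISAT2 2.2.1 (mm10), and exomePeak2 called the peaks against input. The notes also name ChIPseeker. Settings, and how replicates were combined, are not given in the sources used here. The deposited score of each peak was read as a −log10 p-value, since all values were at least 10.0 and 4 were infinite. Whether it was adjusted is not stated.

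Peaks were joined by strand and exon block to GENCODE vM21, with the transcript of longest coding sequence per gene. Motifs were searched on the sense strand. Copies elsewhere in GRCm38 were searched with blastn 2.17.0 (90% of the peak or more, with 98% identity or more). Python 3.11.15, numpy 2.4.6, scipy 1.17.1 and matplotlib 3.10.9 were used. On 200 simulated peaks, 200 were given the right gene, stop codon call, overlap and bases. The stop codon position that placed these peaks was also used to check them, so an error in it would not show. Whether a peak was given to a further gene as well was not checked. All lengths, counts and percentages were computed from the lists. Read depth is unknown, and both p-values and the number of peaks depend on it. The genes and gene lists were chosen with earlier results of these data known. Named genes were the 5 genes, up to 4 of each list with most bases under peaks, and the gene nearest in pattern to each. Others were named after their values were seen, to complete small counts or for comparison. Alternatives covered the score threshold, the overlap, strand, introns, list size, copies, the transcript, the stop codon window and the motif.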

Additional observations from a re-analysis of the deposited data

How the results depend on the processing

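Of 68 alternative values over 12 results, under 15 settings, 54 stayed within 1.5 times of the value reported and 14 moved further. The 54 are no measure of how firm the results are. They include 37 values equal to the reported one, such as those with strand ignored, and a stop codon count of 2 in place of 3. Also among them is the control motif GTCC, with 36 sites under DMSO peaks and 37 under Dox peaks, which says nothing of the GGAC count. With a score of at least 12, 13 DMSO peaks over 6775 nt and 9 Dox peaks over 4100 nt were left, 7 of the 13 and 8 of the 9 were overlapped by the other list, and 4 of the 5 genes had a Dox peak, Lin28a being the exception. With introns included, the peaks spanned 21262 nt in DMSO and 18623 nt in Dox. A peak lay within 200 nt of the stop codon in 5 genes in DMSO and 5 in Dox. For the motif DRACH, 156 sites lay under DMSO peaks and 141 under Dox peaks, and for GAC, 110 and 101. Without Sall4, a setting chosen after seeing the data, the peaks covered 3450 nt in DMSO and 3150 nt in Dox. With the 13001 best-scoring peaks of each list, 15 DMSO and 16 Dox peaks over 7100 and 6900 nt remained. Without peaks that have a copy elsewhere, 15 DMSO and 14 Dox peaks were left. The Nanog 3′UTR peak was dropped in Dox alone, since its DMSO form matched the chromosome X locus with 97% identity, under the 98% required.

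No paired analysis was possible because the replicates of a treatment were merged into 1 list before deposit. For that reason leaving out a replicate was not run either. All 16 peaks of the genes in each list had lengths in multiples of 25 nt, as did 18851 of 18895 DMSO peaks and 12968 of 13001 Dox peaks, so that smaller shifts of their edges would not be seen. The depth of the libraries limits which weak peaks were called, and it was not analysed here.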
